A study of Mus musculus with 16 samples.

Results

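The genes of cholesterol synthesis and sterol regulation were followed in epididymal white adipose tissue (eWAT), the visceral fat depot beside the epididymis, of obese diabetic mice. They are 28 of the 55573 genes in the count table, taken as a list of symbols: 20 enzymes of cholesterol synthesis, 4 regulators of the SREBP transcription factors, 1 sterol transfer protein, and the nuclear receptor Nr1h3 with its targets Abca1 and Abcg1. RNA of whole eWAT was sequenced from C57BLKS/J-db/db males, which are homozygous for a mutation of the leptin receptor and ate standard chow. The vector AAV8-LRG1-FL, which carries FLAG-tagged LRG1, or the control vector AAV8-eGFP had been injected behind the eye of every animal before severe hyperglycemia set in. Tissue was taken at week 7 or week 10 of age, giving LRG1 week 7, eGFP week 7, LRG1 week 10 and eGFP week 10 with 4 mice each, or 16 libraries. The comparisons ask how the same genes stood in LRG1 and in eGFP mice at each week, whether that difference changed between weeks, and how week 10 stood against week 7 within each treatment. LRG1, leucine-rich α-2-glycoprotein 1, is a secreted protein made by adipocytes and liver. Both vectors use the broadly active CB7 promoter, so the transgene is not limited to adipocytes. Cages of mice were assigned whole to a vector, so that cage and treatment cannot be told apart, and the cage or cohort of a library is not given in the sources used here. db/db mice also lack leptin signalling in every group.

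Cells make cholesterol from acetyl-CoA by way of mevalonate and squalene. When membrane sterol is low, SCAP carries SREBP2 from the endoplasmic reticulum to the Golgi, where it is cut and released to switch on the genes of the pathway, while INSIG proteins hold SCAP back when sterol is plentiful. Liver X receptors work in the opposite sense: activated by oxysterols, they induce transporters that move cholesterol out of the cell. Adipocytes hold a large store of free cholesterol around their lipid droplet and make little of it themselves, whereas macrophages that take up lipid from dying fat cells depend on efflux.

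Lrg1, the gene carried by the vector, was at 288 to 478 CPM in LRG1 mice against 86.2 to 110 CPM in eGFP mice at week 7. The week 10 libraries had 286 to 624 CPM in LRG1 mice against 99.6 to 115 CPM in eGFP mice, so that every library matched its label (CPM are counts scaled to a common TMM-adjusted library total). The counts do not separate the vector's transcript from the mouse gene. Library totals were 45376227 to 67539937 counts, and transcripts encoded by mitochondria took 26.7 to 34.2% of them. All 12 adipocyte markers were counted in every library, and of 5 epididymis markers at least 1 was at 0 in each library, their sum being at most 1.61 CPM. The libraries of a group correlated at 0.992 or more over the genes tested, except in eGFP mice at week 10. There, replicates 1 and 3 correlated at 0.993 with each other, as did 2 and 4, and at 0.975 to 0.981 across. Replicates 1 and 3 held 12860 and 14270 CPM of 9 markers of lipid-associated macrophages, against 2180 and 3086 CPM in replicates 2 and 4. The 12 adipocyte markers summed to 8935 and 10760 CPM in replicates 1 and 3 and to 19470 and 18590 CPM in replicates 2 and 4. Apart from those of cell type markers, the counts at week 10 and the genes they turn on are therefore also given without replicates 1 and 3. This choice was made after seeing the data.

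All 28 genes passed the filter on low counts. Per gene length, Hmgcs1, the cytosolic synthase that makes HMG-CoA, was the highest at a mean of 200.1 TPM (counts scaled by gene length and then to a common total) over the 16 libraries. It was followed by Insig1 at 107 TPM, the cholesterol exporter Abca1 at 99.5 TPM and Sc5d, which sets the 5,6 double bond of the sterol nucleus, at 80.8 TPM. The next were Nsdhl at 56.8 TPM, Nr1h3 at 53.2 TPM and Pmvk at 43.0 TPM. At the low end were Idi1 at 2.17 TPM, Tm7sf2 at 1.97 TPM and Fdps at 1.61 TPM, which make or use isoprenoid and sterol intermediates. Hmgcs1 ran from 114 to 261 TPM, Insig1 from 72.2 to 149.5 TPM, Abca1 from 58.8 to 156 TPM and Sc5d from 30.0 to 107 TPM, so that each of these overlapped the next in the order. The order also differed between groups: Abca1 averaged 113 TPM and Insig1 86.1 TPM in LRG1 mice at week 7, against 70.7 TPM for Abca1 and 148 TPM for Insig1 in eGFP mice. Some of these genes share sequence with others. Fdft1 shares 774 exon bases on the opposite strand with Ctsb, which averaged 165400 counts a library against 1146 for Fdft1. Acat2 is 97.7% identical over 1477 bases to Acat3 and matches Tcp1 over 445 bases at 98.7%, and Tm7sf2 overlaps 532 bases of Vps51. Idi1 and Fdps have processed pseudogenes of 97.7 to 100% identity. Fdps also shares 1124 exon bases, 26.7% of its own, with Gm43738 on the same strand, which averaged 0.5 counts a library. Cyp51 and Ggps1 share 166 and 257 exon bases on the opposite strand with Akap9 and Arid4b. Since neither the strand setting nor the handling of multiply mapped reads is stated, the counts of these 7 genes are uncertain. The partner genes were named for their position or sequence.

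**Figure D1:**
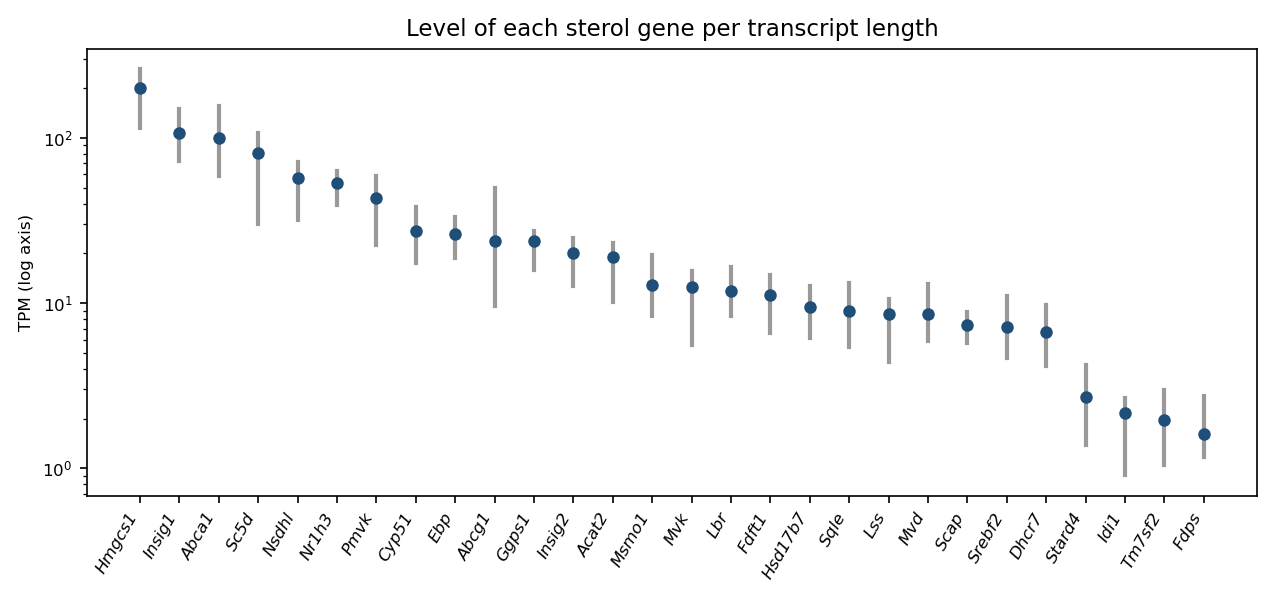
Mean level over the 16 libraries (points) and the lowest to highest library (grey bars) of each of the 28 genes, in TPM on a log axis, ordered from the highest, Hmgcs1 at 200.1 TPM, to the lowest, Fdps at 1.61 TPM.

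At week 7, LRG1 mice had 3 of the 28 genes higher and 2 lower at an adjusted p below 0.01 (edgeR's quasi-likelihood F test, Benjamini-Hochberg over 20822 genes), and 23 passed in neither direction. Abca1 and Insig2, which holds SCAP in the endoplasmic reticulum, were higher, as was Acat2, which joins acetyl-CoA units at the head of the pathway. The exporter Abcg1 and Lbr, a sterol reductase of the inner nuclear membrane, were lower. Over all genes, 18% were called in this comparison, 7.37% higher and 10.7% lower, so that 5 of 28 is near that background. DESeq2 called 8 of the 28, 5 higher and 3 lower, and 5226 of the 20822 genes, 2400 higher and 2826 lower. The median log2 fold change of the 28 genes was -0.07, beside 0.01 over all genes tested. The share of all genes whose LRG1 and eGFP libraries did not overlap was not counted at either week.

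In the mevalonate arm, 1 of 8 genes rose at week 7. Acat2 was counted at 22.4, 26.0, 27.3 and 23.9 CPM in LRG1 mice, against 20.3, 19.7, 18.3 and 16.6 CPM in eGFP mice. Each LRG1 mouse lay above each eGFP mouse, a log2 fold change of 0.41 (SE 0.10, adjusted p = 0.0062). Hmgcs1 averaged 409 ± 57.5 CPM in LRG1 mice and 366 ± 16.5 CPM in eGFP mice (SD, n = 4 each), with overlapping libraries (adjusted p = 0.20). Mvd, which makes isopentenyl diphosphate, had 5.78, 5.77, 7.00 and 5.74 CPM in LRG1 mice, against 8.06, 9.64, 8.67 and 8.83 CPM in eGFP mice. These ranges did not overlap, yet the gene missed the threshold at a log2 fold change of -0.54 (SE 0.19, adjusted p = 0.038). Pmvk, the phosphomevalonate kinase, stood at 0.31 (adjusted p = 0.036) and Ggps1, which makes geranylgeranyl diphosphate, at 0.23 (adjusted p = 0.018). Mvk, Idi1 and Fdps overlapped between the groups, with log2 fold changes of 0.10, -0.04 and -0.34.

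In the squalene and sterol arm, 1 of 12 genes fell at week 7 and none rose. Lbr was at 22.8, 23.2, 18.5 and 20.04 CPM in LRG1 mice, against 30.4, 26.8, 24.4 and 29.5 CPM in eGFP mice. All LRG1 libraries were below all eGFP libraries, a log2 fold change of -0.39 (SE 0.10, adjusted p = 0.0060). Sc5d was at 189, 198, 243 and 188 CPM in LRG1 mice, against 150.5, 147, 163 and 146 CPM in eGFP mice. The groups did not overlap, but the log2 fold change of 0.43 (SE 0.13) did not pass (adjusted p = 0.018). Msmo1, the methyl sterol oxidase, averaged 31.2 ± 3.25 CPM in LRG1 mice and 40.6 ± 5.38 CPM in eGFP mice (SD, n = 4 each), a log2 fold change of -0.38 (adjusted p = 0.13). Sqle, which oxidises squalene and is a rate-limiting step, averaged 19.9 ± 3.19 CPM in LRG1 mice and 25.7 ± 2.81 CPM in eGFP mice (SD, n = 4 each), a log2 fold change of -0.37 (adjusted p = 0.23). The isomerase Ebp stood at -0.18 (adjusted p = 0.053) with no overlap. Fdft1, Lss, Cyp51, Tm7sf2, Nsdhl, Hsd17b7 and Dhcr7 had log2 fold changes of -0.17 to 0.14, none called.

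Of the 4 SREBP regulators, Insig2 rose at week 7. It was at 30.3, 31.5, 36.9 and 34.8 CPM in LRG1 mice, against 24.8, 22.6, 24.3 and 22.8 CPM in eGFP mice. No LRG1 library reached down to the eGFP libraries, and the log2 fold change was 0.50 (SE 0.10, adjusted p = 0.0021). Insig1, an SREBP target as well as a brake on it, was at 116, 112, 144 and 99.1 CPM in LRG1 mice, against 179, 180.2, 169 and 175 CPM in eGFP mice. The groups were apart here too, in the other direction, but the log2 fold change of -0.58 (SE 0.17) missed the threshold (adjusted p = 0.019). The ratio of Insig1 to Insig2 counts was 2.85 to 3.91 in LRG1 mice and 6.95 to 7.97 in eGFP mice. Srebf2, which encodes SREBP2, was at 23.4, 16.6, 22.7 and 19.4 CPM in LRG1 mice, against 25.8, 31.4, 28.8 and 25.9 CPM in eGFP mice (log2 fold change -0.45, SE 0.15, adjusted p = 0.034). Scap averaged 22.4 ± 1.34 CPM in LRG1 mice and 24.4 ± 1.04 CPM in eGFP mice (SD, n = 4 each, adjusted p = 0.24). Stard4, a cytosolic sterol carrier and SREBP2 target, was at 7.48, 5.42, 5.99 and 4.27 CPM in LRG1 mice, against 8.75, 9.33, 8.42 and 8.21 CPM in eGFP mice. It did not pass either, at a log2 fold change of -0.58 (SE 0.20, adjusted p = 0.035).

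The LXR genes split at week 7. Abca1, which loads cholesterol onto apolipoprotein A-I, was at 574, 490.4, 492 and 512 CPM in LRG1 mice, against 255, 249, 322 and 297 CPM in eGFP mice. The lowest LRG1 library was well above the highest eGFP library, a log2 fold change of 0.88 (SE 0.14, adjusted p = 3e-04). Abcg1, which passes cholesterol to high-density lipoprotein and is abundant in macrophages, was at 43.8, 52.5, 32.8 and 52.4 CPM in LRG1 mice, against 96.6, 96.0, 91.7 and 81.3 CPM in eGFP mice. All 4 LRG1 libraries were lower, a log2 fold change of -1.01 (SE 0.26, adjusted p = 0.0082). Nr1h3, which encodes LXRα, averaged 59.4 ± 4.23 CPM in LRG1 mice and 58.0 ± 4.28 CPM in eGFP mice (SD, n = 4 each, adjusted p = 0.78).

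Marker genes of several cell types moved in the same comparison. Of 11 macrophage markers 9 fell at week 7, their sum being 1421 to 1541 CPM in LRG1 mice and 2846 to 3545 CPM in eGFP mice. Of 9 markers of lipid-associated macrophages 5 fell, with sums of 1116 to 1597 CPM in LRG1 mice and 3433 to 5471 CPM in eGFP mice. Of 12 adipocyte markers 3 rose, with sums of 17740 to 21950 CPM in LRG1 mice and 12920 to 13830 CPM in eGFP mice. Of the endothelial markers 4 of 5 rose, and 5 of 5 T cell markers fell. Over all genes 7.37% rose and 10.7% fell. In bulk tissue, fewer cells of a type and less RNA per cell cannot be told apart, and the part of these shifts in the sterol genes was not tested.

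With only the 8 libraries of week 7 in the fit, 11 genes passed, 4 higher and 7 lower, among them Sc5d and Insig1. Over all genes that fit called 5727 of 19719, 2581 higher and 3146 lower. With libraries scaled by their totals alone, which moves the median of all genes to -0.15, 1 gene was higher and 6 were lower, and with upper quartile scaling 4 were higher and none lower. Leaving out any 1 library of week 7 left 2 to 4 genes called: Abca1 and Insig2 passed in each of the 8 fits, Lbr in 3, Acat2 in 2 and Abcg1 in none (adjusted p = 0.013 to 0.033).

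**Figure D2:**
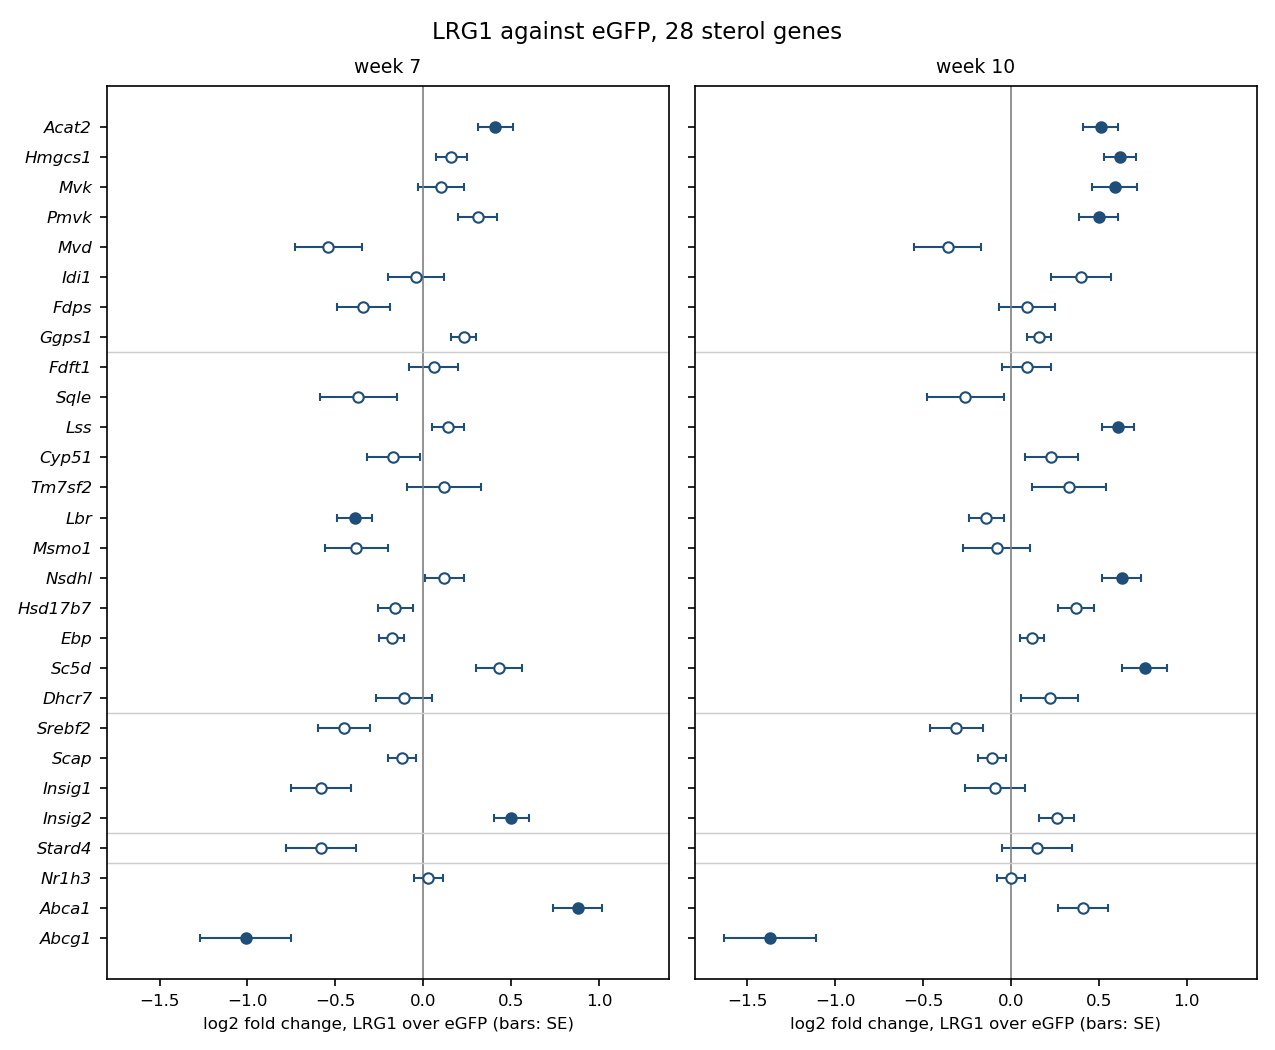
Log2 fold change of LRG1 over eGFP for the 28 genes at week 7 (left) and week 10 (right), with bars of 1 SE, filled where the adjusted p was below 0.01 and open otherwise. Grey lines part the mevalonate arm, the squalene and sterol arm, the SREBP regulators, Stard4, and the LXR genes. Abcg1 is the lowest at both weeks (-1.01 and -1.37).

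At week 10, 7 of the 28 genes were higher in LRG1 mice, 1 was lower and 20 passed in neither direction. All 7 are synthesis enzymes, 4 of the mevalonate arm (Acat2, Hmgcs1, Mvk and Pmvk) and 3 of the sterol arm (Lss, Nsdhl and Sc5d), and the gene that fell was Abcg1. Over all genes 8.9% were called, 3.66% higher and 5.24% lower. The 20 enzymes had a median log2 fold change of 0.28, beside 0 over all genes, and 16 of them were positive. These calls rest on the spread shared by all 16 libraries. With only the 8 libraries of week 10 in the fit, edgeR called none of the 28 (10 had an unadjusted p below 0.05) and 12 genes in all, and the 8 genes above had adjusted p of 0.021 to 0.046 at almost the same log2 fold changes.

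Of the mevalonate arm, 4 of 8 genes rose. Hmgcs1 (chromosome 13, 119690379 to 119708260, GRCm38) was at 499, 420.4, 473 and 482 CPM in LRG1 mice, against 312, 304, 301 and 299 CPM in eGFP mice. The eGFP libraries lay within a narrow band and all LRG1 libraries were above it, a log2 fold change of 0.62 (SE 0.09, adjusted p = 0.0011). Mvk (chromosome 5, 114444269 to 114460591), the mevalonate kinase, was at 15.7, 17.3, 14.9 and 16.1 CPM in LRG1 mice, against 8.72, 12.2, 8.59 and 12.9 CPM in eGFP mice. Here the groups were apart although the eGFP libraries fell into a lower and a higher pair, at a log2 fold change of 0.59 (SE 0.13, adjusted p = 0.0056). Pmvk (chromosome 3, 89454541 to 89469013) was at 33.9, 28.6, 35.2 and 31.4 CPM in LRG1 mice, against 21.97, 22.01, 22.15 and 25.1 CPM in eGFP mice. All LRG1 libraries were higher, by 0.50 on the log2 scale (SE 0.11, adjusted p = 0.0049). Acat2 (chromosome 17, 12942890 to 12960747) was at 21.5, 18.9, 24.3 and 24.2 CPM in LRG1 mice, against 13.9, 16.2, 14.8 and 17.7 CPM in eGFP mice. Again no library overlapped, at a log2 fold change of 0.51 (SE 0.10, adjusted p = 0.0038). The other 4 overlapped: Idi1 stood at 0.40 (adjusted p = 0.094), Ggps1 at 0.16 (adjusted p = 0.11), Fdps at 0.09 and Mvd at -0.36 (adjusted p = 0.18).

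Of the squalene and sterol arm, 3 of 12 genes rose. Lss (chromosome 10, 76531588 to 76557138), the cyclase that closes the sterol rings to lanosterol, was at 44.0, 38.7, 42.2 and 47.5 CPM in LRG1 mice, against 30.9, 25.2, 27.3 and 29.6 CPM in eGFP mice. Every LRG1 library was above every eGFP library, a log2 fold change of 0.61 (SE 0.09, adjusted p = 0.0010). Nsdhl (chromosome X, 72918557 to 72958514), which takes part in removing the C4 methyl groups, was at 84.2, 60.7, 84.4 and 81.9 CPM in LRG1 mice, against 55.6, 42.3, 52.0 and 50.7 CPM in eGFP mice. Replicate 2 was the lowest of both groups, and the ranges stayed apart (log2 fold change 0.63, SE 0.11, adjusted p = 0.0024). Sc5d (chromosome 9, 42251595 to 42264256) was at 199.7, 181, 201 and 185 CPM in LRG1 mice, against 104, 141, 83.6 and 126 CPM in eGFP mice. Its log2 fold change of 0.76 was the highest of the 28 genes (SE 0.13, adjusted p = 0.0020). Hsd17b7, the 3-ketosteroid reductase that works with Nsdhl, was at 24.2, 18.1, 20.2 and 23.3 CPM in LRG1 mice, against 16.7, 16.1, 18.1 and 15.5 CPM in eGFP mice. The lowest LRG1 library only just cleared the highest eGFP library, and the gene missed the threshold (log2 fold change 0.37, SE 0.10, adjusted p = 0.013). Sqle, Msmo1, Cyp51, Dhcr7, Fdft1, Tm7sf2, Lbr and Ebp had log2 fold changes of -0.26 to 0.33, none called.

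The SREBP regulators and Stard4 did not pass at week 10. Insig1 was at 150, 126, 115 and 113 CPM in LRG1 mice, against 170.5, 94.5, 169 and 103 CPM in eGFP mice. The eGFP libraries lay on both sides of the LRG1 libraries (log2 fold change -0.09, SE 0.17, adjusted p = 0.73). Insig2 was at 30.8, 33.0, 33.9 and 35.2 CPM in LRG1 mice, against 22.5, 32.7, 25.3 and 30.8 CPM in eGFP mice, where replicates 1 and 3 were low (log2 fold change 0.26, SE 0.10, adjusted p = 0.083). Srebf2 averaged 16.6 ± 2.17 CPM in LRG1 mice and 20.5 ± 4.85 CPM in eGFP mice (SD, n = 4 each, adjusted p = 0.15). Scap averaged 21.9 ± 1.48 CPM in LRG1 mice and 23.7 ± 2.19 CPM in eGFP mice (SD, n = 4 each, adjusted p = 0.32). Stard4 stood at a log2 fold change of 0.15 (adjusted p = 0.63).

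Abcg1 (chromosome 17, 31057675 to 31117988) was at 32.1, 55.0, 41.2 and 46.9 CPM in LRG1 mice at week 10, against 148, 56.7, 163 and 85.9 CPM in eGFP mice. Replicate 2 of the eGFP group was level with the highest LRG1 library, and replicates 1 and 3 were far above it. The log2 fold change was -1.37 (SE 0.26, adjusted p = 0.0031) with all libraries and -0.70 (SE 0.20, adjusted p = 0.059) without eGFP replicates 1 and 3. Abca1 was at 518, 464, 503 and 684 CPM in LRG1 mice, against 346, 426, 349 and 508 CPM in eGFP mice. The groups overlapped, and the log2 fold change of 0.41 (SE 0.14) did not pass (adjusted p = 0.044). Nr1h3 averaged 54.1 ± 5.01 CPM in LRG1 mice and 54.0 ± 3.47 CPM in eGFP mice (SD, n = 4 each, adjusted p = 0.99).

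**Figure D3:**
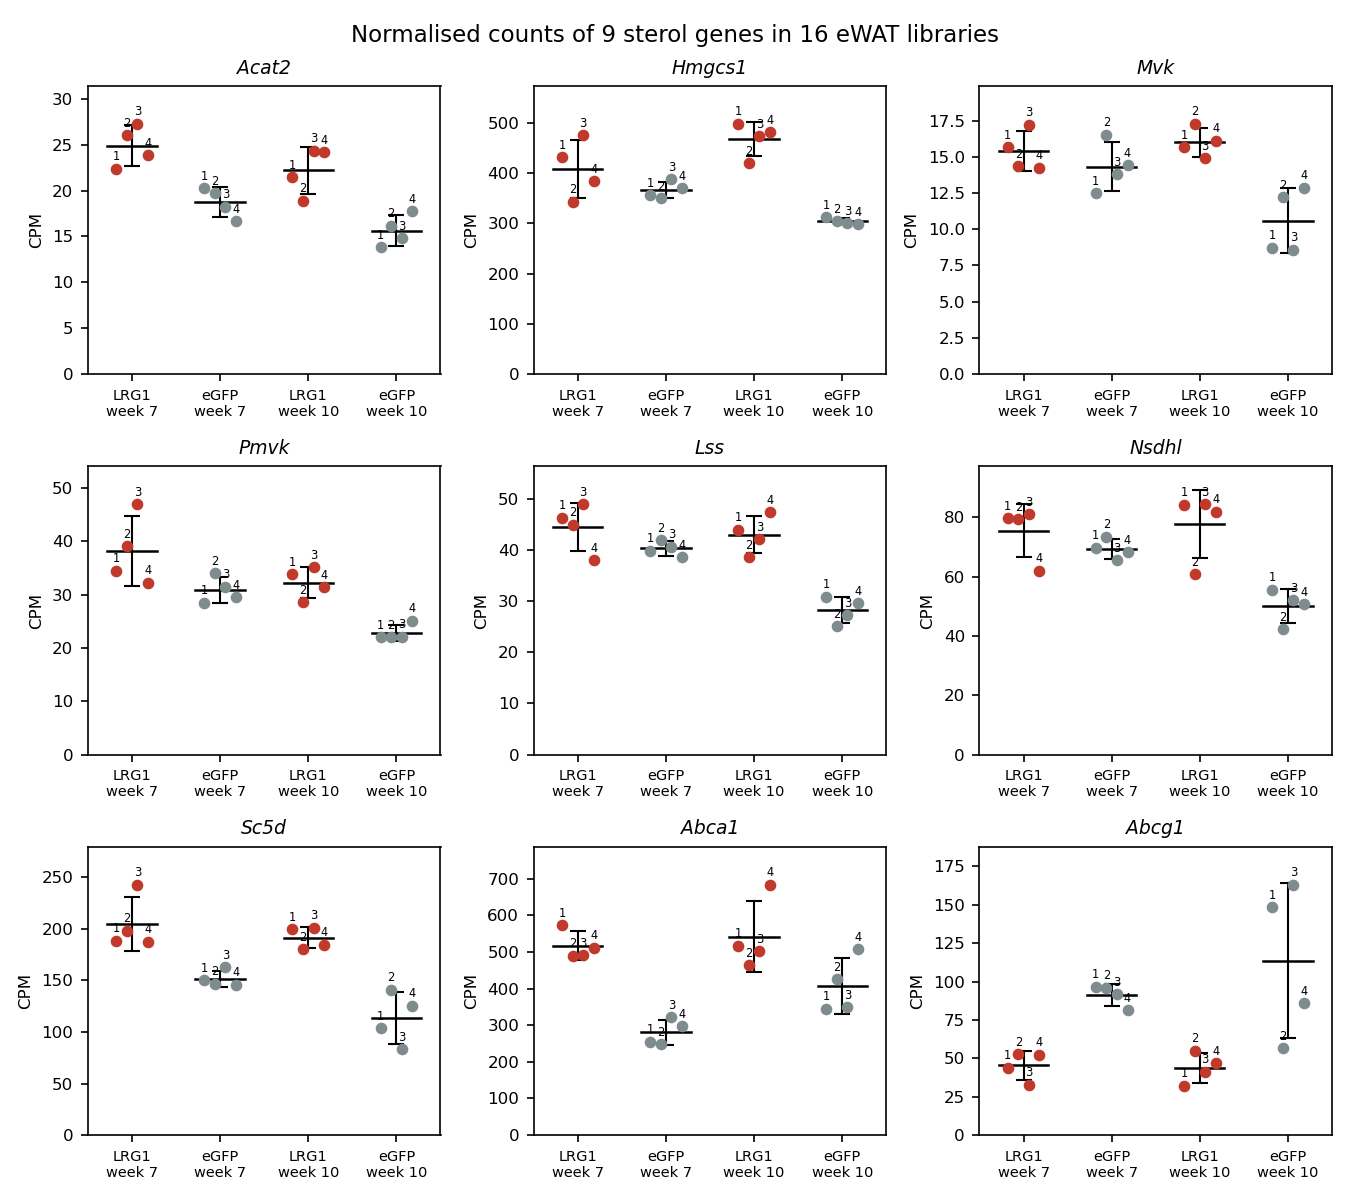
CPM of 9 genes in the 16 libraries, each point being 1 mouse with its replicate number, with the mean and SD of the 4 mice of a group in black. The 7 enzymes, shown because they passed at week 10, are higher in LRG1 (red) than in eGFP (grey) there with no overlap. The share of all genes with no overlap was not counted. Abca1 is apart at week 7 alone, and eGFP replicates 1 and 3 stand out in Abcg1 at week 10 (148 and 163 CPM).

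At week 10, 9 of 11 macrophage markers and 9 of 9 markers of lipid-associated macrophages fell, and 1 of 12 adipocyte markers rose. All 4 mast cell markers fell, with sums of 19.1 to 22.5 CPM in LRG1 mice, against 357 and 398 CPM in eGFP replicates 1 and 3 and 34.5 and 87.5 CPM in eGFP replicates 2 and 4. Of 5 T cell markers 3 fell. Over all genes 3.66% rose and 5.24% fell, and the marker counts were not made without eGFP replicates 1 and 3. The lipid-associated markers summed to 1047 to 1859 CPM in LRG1 mice and to 2180 to 14270 CPM in eGFP mice. The adipocyte markers summed to 20530 to 22160 CPM in LRG1 mice and to 8935 to 19470 CPM in eGFP mice. The part of these shifts in the sterol genes was not tested. Without eGFP replicates 1 and 3, whose marker sums were the furthest from the LRG1 mice, 3 genes remained called, all higher and all among the 8 above: Hmgcs1 at 0.64 (adjusted p = 0.0066), Lss at 0.65 (adjusted p = 0.0058) and Nsdhl at 0.74 (adjusted p = 0.0091). Over all genes that fit called 161 of 21872, 87 higher and 74 lower. Sc5d stood at 0.52 (adjusted p = 0.011) and Mvk at 0.35 (adjusted p = 0.089), against 0.76 and 0.59 with all libraries. Acat2 stood at 0.39 (adjusted p = 0.066) and Pmvk at 0.45 (adjusted p = 0.065). Dhcr7, which reduces the last but one sterol, stood at 0.55 (adjusted p = 0.034) and Sqle at 0.41 (adjusted p = 0.098). The sign turned for Sqle, and also for Mvd at 0.16, Msmo1 at 0.41, Insig1 at 0.35 and Fdft1 at -0.15, none of them called with or without these libraries. Abca1 stood at 0.22 (adjusted p = 0.46) and Insig2 at 0.07 (adjusted p = 0.75). Leaving out 1 library of week 10 at a time left 3 to 9 genes called: 4 without eGFP replicate 1 or 3, 5 without LRG1 replicate 1, and 3 without LRG1 replicate 3 or 4. Over all genes the fits with 1 library left out called 284 to 3647. Hmgcs1, Lss and Sc5d passed in each of these 8 fits and Abcg1 in 3.

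SREBP2 acts on promoters together with NF-Y, which binds CCAAT, and Sp1, which binds GC-rich boxes. Promoter windows of 250 bases before to 50 after the RefSeq transcript start (GRCm38.p6) were at hand for 23 of the 28 genes and not for Fdps, Fdft1, Sqle, Stard4 and Abcg1. The 180 bases before the start are given for 5 genes that rose at week 10, for Mvd, an enzyme that did not, and for Abca1, the LXR target, so that the letters can be read beside the values. Each is written 5′ to 3′ on the strand of its gene, with CCAAT or its complement ATTGG and the sterol response letters TCACNCCAC in capitals:
Hmgcs1 (chr13:119690171-119690350, plus strand): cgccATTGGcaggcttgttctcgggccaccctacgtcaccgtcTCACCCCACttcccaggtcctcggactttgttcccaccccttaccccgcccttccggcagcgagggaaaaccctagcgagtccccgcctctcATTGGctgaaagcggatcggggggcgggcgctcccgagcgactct
Mvk (chr5:114444089-114444268, plus strand): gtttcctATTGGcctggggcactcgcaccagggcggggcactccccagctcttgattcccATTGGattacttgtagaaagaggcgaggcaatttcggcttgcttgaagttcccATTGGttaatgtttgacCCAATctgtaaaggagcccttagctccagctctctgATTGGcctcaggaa
Lss (chr10:76531425-76531604, plus strand): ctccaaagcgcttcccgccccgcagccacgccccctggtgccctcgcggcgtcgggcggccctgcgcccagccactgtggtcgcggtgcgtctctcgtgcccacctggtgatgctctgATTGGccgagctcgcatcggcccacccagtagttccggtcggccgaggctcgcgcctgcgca
Nsdhl (chrX:72918341-72918520, plus strand): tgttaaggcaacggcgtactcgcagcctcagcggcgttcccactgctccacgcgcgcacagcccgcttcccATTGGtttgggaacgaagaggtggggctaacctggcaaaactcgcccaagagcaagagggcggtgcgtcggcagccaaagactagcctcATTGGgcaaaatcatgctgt
Sc5d (chr9:42264301-42264480, minus strand): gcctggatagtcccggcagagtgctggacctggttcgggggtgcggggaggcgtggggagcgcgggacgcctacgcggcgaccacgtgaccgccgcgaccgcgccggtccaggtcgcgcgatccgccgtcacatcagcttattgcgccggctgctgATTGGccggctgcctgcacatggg
Mvd (chr8:122443423-122443602, minus strand): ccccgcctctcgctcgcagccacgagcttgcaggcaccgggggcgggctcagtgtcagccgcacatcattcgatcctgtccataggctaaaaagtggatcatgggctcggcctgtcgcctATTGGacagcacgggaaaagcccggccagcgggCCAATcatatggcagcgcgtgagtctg
Abca1 (chr4:53159896-53160075, minus strand): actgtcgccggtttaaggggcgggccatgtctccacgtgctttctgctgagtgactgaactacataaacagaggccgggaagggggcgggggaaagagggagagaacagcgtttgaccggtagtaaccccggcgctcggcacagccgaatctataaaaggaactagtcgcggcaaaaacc

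The letters TCACNCCAC, searched on both strands of the 300 bases, occurred in 1 of the 23 genes with a window, Hmgcs1, whose TCACCCCAC begins 137 bases before the start. They occurred in 1.44% of the 27025 mouse genes with a window of this length, and in 1.24% of the 32851 windows. CCAAT occurred in 19 of the 23 genes, the exceptions being Abca1, Acat2, Nr1h3 and Scap, and in 41.1% of all genes with a window. The GC box GGGCGG occurred in 20 of the 23 and in 38.2% of all genes. Within the stretches shown, Mvk has 5 CCAAT boxes, Hmgcs1, Nsdhl and Mvd have 2, Lss and Sc5d have 1 and Abca1 has none. A gene was counted if any of its windows held the letters. Of the 7 enzymes that rose, Acat2 is the only gene without CCAAT in any window, and Mvd, which did not rise, has it. Pmvk has CCAAT in the window that begins at 89454291 and not in that of a later start. Acat2 and Pmvk are not among the stretches shown. Only exact letters were searched, so a sterol response element with other letters would be missed. The absence of TCACNCCAC from a window therefore does not show that such an element is absent. None of these letters is a measured binding site.

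The test of the difference between the effect at week 10 and the effect at week 7 called none of the 28 genes by edgeR, DESeq2 or limma-voom, while 8, 8 and 9 genes had an unadjusted p below 0.05 with these tools in turn. Over all genes it called 0.327%, of which 0.307% were higher and 0.0192% lower. By sign, 23 of the 28, and 19 of the 20 enzymes, had a more positive log2 fold change at week 10, with a median difference of 0.27 beside 0 over all genes. The smallest adjusted p was that of Hsd17b7, at a difference of 0.54 (SE 0.14, adjusted p = 0.084), followed by Lss at 0.46 (SE 0.12, adjusted p = 0.10) and Hmgcs1 at 0.47 (SE 0.13, adjusted p = 0.12). Stard4 had the widest, 0.73 (SE 0.28, 95% interval 0.12 to 1.35, adjusted p = 0.36). Abca1 and Abcg1 went the other way, at -0.47 (95% interval -0.90 to -0.04) and -0.36 (95% interval -1.16 to 0.43). So that an enzyme passed at week 10 and not at week 7 is not shown to be a difference between the weeks. Without eGFP replicates 1 and 3, 1 of the 28 genes was called, Insig1, at a difference of 0.92 (adjusted p = 0.0043). Over all genes that fit called 466 of 21872.

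Between week 10 and week 7, 2 of the 28 genes fell in eGFP mice by edgeR, both of the sterol arm, and none rose. Limma-voom also called 2 lower, DESeq2 called 6 lower and 1 higher, and edgeR with libraries scaled by their totals called 6 lower. Over all genes these fits called 455, 1079 and 567 genes in turn. In LRG1 mice none was called by edgeR, DESeq2 or limma-voom, and 2 had an unadjusted p below 0.05 with each tool. The difference between these changes is the contrast just given, in which none of the 28 was called. Over all genes, 0.00961% were called in LRG1 mice, 0.0048% higher and 0.0048% lower, and 2.14% in eGFP mice, 0.629% higher and 1.51% lower. The median log2 fold change of the 28 genes was -0.06 in LRG1 mice and -0.39 in eGFP mice, where 24 of 28 were negative. The eGFP libraries of week 10 enter this contrast and that of the treatments at week 10, so the lower levels there are the same measurements seen from another side.

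Lss was at 30.9, 25.2, 27.3 and 29.6 CPM in eGFP mice at week 10, against 40.0, 42.1, 40.8 and 38.7 CPM at week 7. All 4 mice of week 10 were below all of week 7, and the log2 fold change was -0.52 (SE 0.09, adjusted p = 0.0026). Hsd17b7 was at 16.7, 16.1, 18.1 and 15.5 CPM in eGFP mice at week 10, against 22.4, 23.4, 23.7 and 22.1 CPM at week 7. The weeks did not overlap, at a log2 fold change of -0.47 (SE 0.10, adjusted p = 0.0092). The same genes in LRG1 mice had log2 fold changes of -0.05 (SE 0.09) for Lss and 0.07 (SE 0.10) for Hsd17b7. Hmgcs1, Pmvk, Idi1, Fdps, Cyp51, Nsdhl, Ebp, Sc5d and Stard4 were also lower at week 10 in eGFP mice with no overlap. Their log2 fold changes of -0.80 to -0.22 did not pass (adjusted p = 0.023 to 0.099). The share of all genes with no overlap between these groups was not counted. Abca1 was the only gene of the 28 above its week 7 range, at 0.54 (SE 0.14, adjusted p = 0.033). Left-out libraries mattered here as well. Hsd17b7 lost its call without any 1 of the 8 eGFP libraries, while Lss kept it in each of those fits, and with only the 8 eGFP libraries in the fit neither was called (16 of the 28 had an unadjusted p below 0.05).

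**Figure D4:**
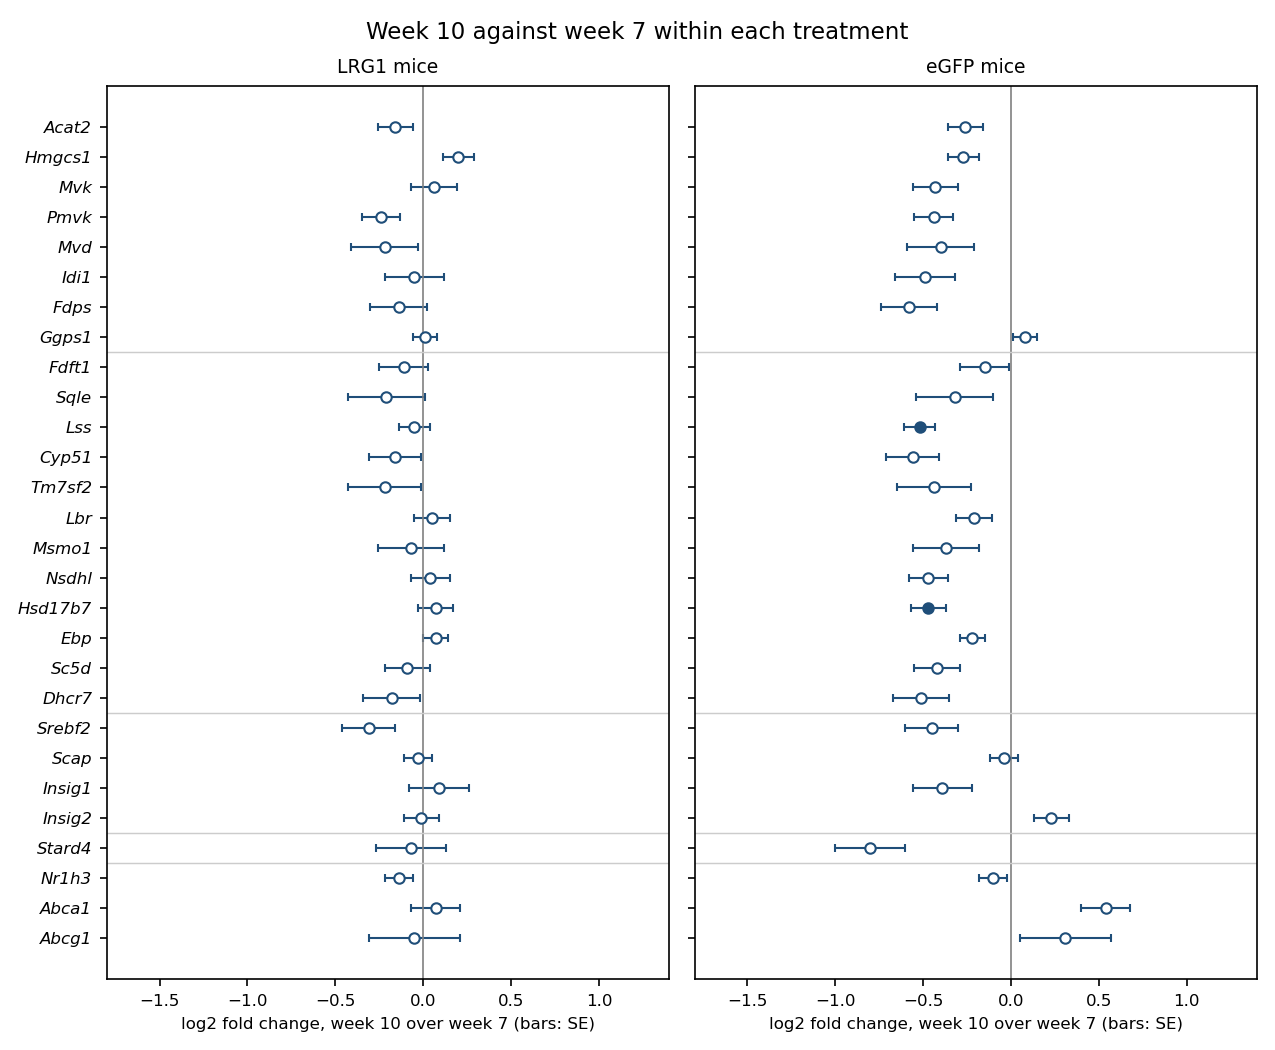
Log2 fold change of week 10 over week 7 for the 28 genes in LRG1 mice (left) and eGFP mice (right), with bars of 1 SE, filled where the adjusted p was below 0.01. The median is -0.06 in LRG1 mice and -0.39 in eGFP mice, where Lss and Hsd17b7 alone are filled.

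The eGFP mice of week 10 were unlike each other in these genes, and in both directions. Of the 28 genes, 13 were higher in both of replicates 1 and 3 than in both of replicates 2 and 4. In 7 the order was the reverse, and 8 were mixed. This order was not counted over all genes, so the split is not shown to be particular to the 28. The 13 held Srebf2, Scap, Insig1, Stard4, Abcg1 and 8 of the 20 enzymes. Sqle was at 15.5 to 18.3 CPM in LRG1 mice at week 10, against 28.8 and 27.6 CPM in replicates 1 and 3 of the eGFP group and 13.3 and 12.7 CPM in replicates 2 and 4. Insig1 and Msmo1 had the same order, Msmo1 at 41.1 and 39.7 CPM in replicates 1 and 3 and at 23.4 and 21.5 CPM in replicates 2 and 4. Mvd was at 8.58 and 8.85 CPM in replicates 1 and 3 and at 4.26 and 5.03 CPM in replicates 2 and 4. The 7 genes lower in replicates 1 and 3 were Acat2, Mvk, Ggps1, Fdft1, Sc5d, Insig2 and Abca1. The counts of adjacent steps could thus run opposite ways. Acat2, Ggps1 and Fdft1 are among the genes whose counts are uncertain, Fdft1 for the bases it shares with Ctsb. Fdft1 makes squalene and Sqle oxidises it, and the ratio of Sqle to Fdft1 CPM was 0.762 to 1.2 in LRG1 mice at week 10, against 2.15 and 1.78 in eGFP replicates 1 and 3 and 0.573 and 0.672 in eGFP replicates 2 and 4. The ratio of Insig1 to Insig2 CPM was 3.21 to 4.85 in LRG1 mice at week 10, against 7.58 and 6.68 in eGFP replicates 1 and 3 and 2.89 and 3.36 in eGFP replicates 2 and 4. In the Insig ratio, replicates 1 and 3 were near the 6.95 to 7.97 of eGFP mice at week 7. In the Sqle to Fdft1 ratio they were above the 1.06 to 1.49 of those mice, and replicates 2 and 4 were below every LRG1 mouse. The adipocyte and macrophage marker sums split the same 4 mice in the same way, and their part in these genes was not tested.

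Without replicates 1 and 3, 13 of the 28 genes were called between week 10 and week 7 in eGFP mice, in place of 2. Over all genes the calls also went up, from 446 of 20822 to 2209 of 21872, 1063 higher and 1146 lower. Of the 13 genes, 11 were lower and 2 higher. The 11 were Mvd, Sqle, Lss, Cyp51, Msmo1, Nsdhl, Hsd17b7, Dhcr7, Srebf2, Insig1 and Stard4, from a log2 fold change of -1.14 for Stard4 (adjusted p = 0.0021) to -0.54 for Hsd17b7 (adjusted p = 0.0041). Insig2 rose by 0.42 (adjusted p = 0.0026) and Abca1 by 0.74 (adjusted p = 0.0017) on the log2 scale. This fit has 2 eGFP mice at week 10, picked by their levels, and is given as a limit and not as a result.

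**Figure D5:**
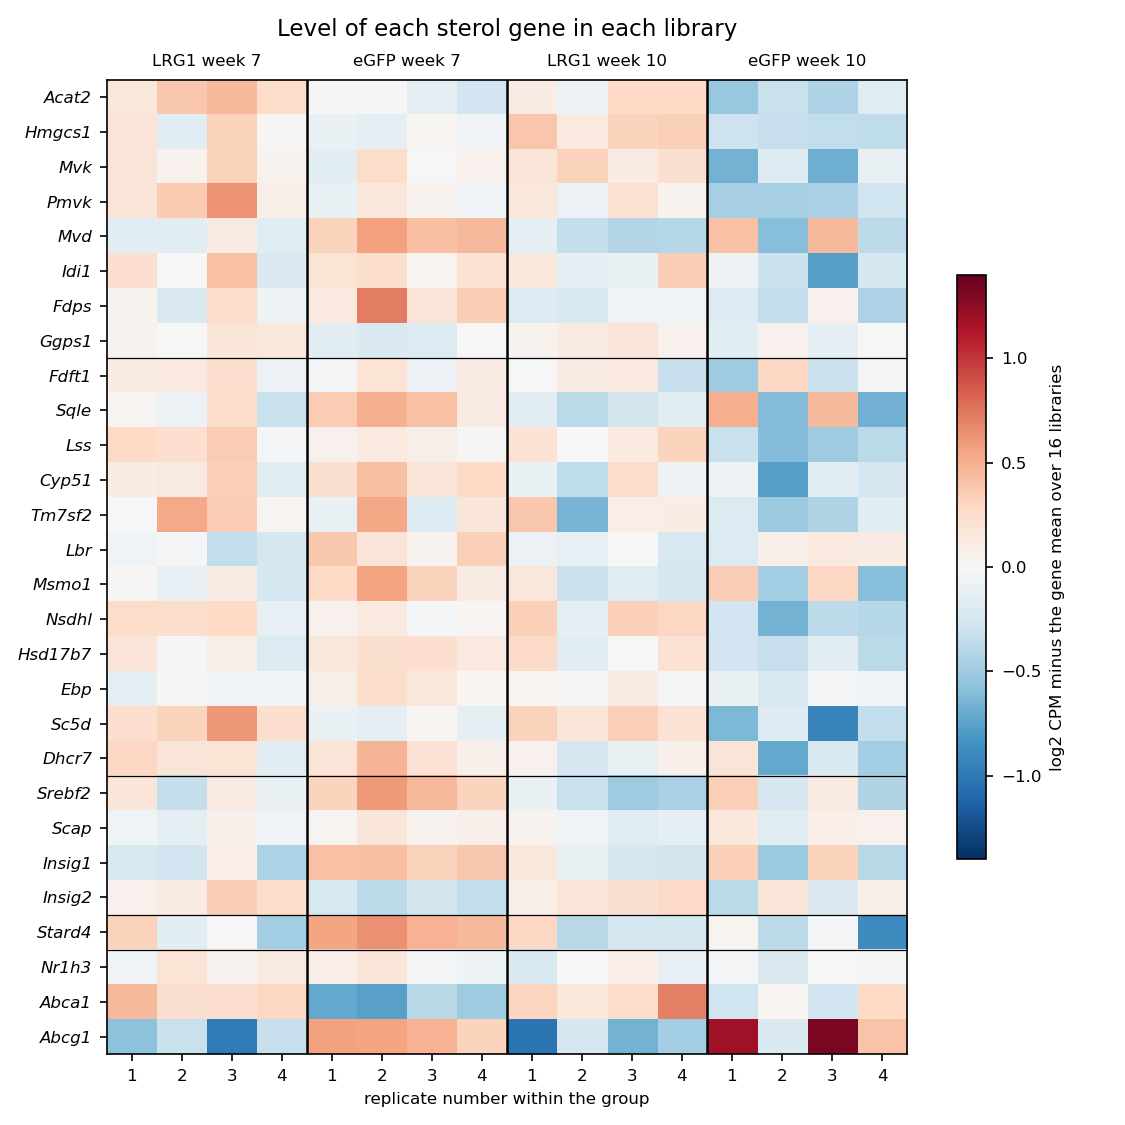
Level of each of the 28 genes in each of the 16 libraries, as log2 CPM minus the mean of that gene over the libraries (red above, blue below), with groups parted by black lines and replicate numbers below. In the eGFP week 10 block, replicates 1 and 3 differ from 2 and 4 in Sqle, Mvd, Msmo1, Insig1 and Abcg1.

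The other groups were more even, with mice that stood high or low in many enzymes at once. In LRG1 mice of week 7, replicate 3 was the highest in 15 of the 20 enzymes and replicate 4 the lowest in 13. In eGFP mice of week 7, replicate 2 was the highest in 14. In LRG1 mice of week 10, replicate 2 was the lowest in 15, and replicate 3 was the highest in 10. How often a library was the highest or lowest over all genes was not counted. Summed over the 20 enzymes, the level was 991.9 to 1238 CPM in LRG1 mice and 978 to 1016 CPM in eGFP mice at week 7, ranges that overlapped. At week 10 it was 1008 to 1172 CPM in LRG1 mice and 778 to 816 CPM in eGFP mice, with no overlap. Hmgcs1 is the largest part of each sum.

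Of the genes around the pathway, the 8 that cut SREBP or control the turnover of its sterol sensors had none called by edgeR at week 7 or week 10, with medians of 0. At an unadjusted p below 0.05 there were 3 at each week, DESeq2 called 2 and 1 of them higher, and limma-voom called none. The 13 genes of the non-sterol branches of the mevalonate pathway, which make dolichol, ubiquinone and prenyl groups, had none called by edgeR either, with medians of 0.17 and 0.04. At an unadjusted p below 0.05 there were 9 and 3, DESeq2 called 3 and 1 higher, and limma-voom called none. Of 12 tested LXR partners and further LXR targets, 3 rose and 2 fell at week 7, where 7.37% and 10.7% of all genes did. Mylip, a ubiquitin ligase for lipoprotein receptors, was at 58.2 to 78.1 CPM in LRG1 mice against 31.5 to 34.4 CPM in eGFP mice (log2 fold change 1.06, adjusted p = 2.5e-04), and Rxra, the partner receptor of LXR, rose by 0.42 (adjusted p = 0.0020). Arl4c, a small GTPase, fell by 0.66 (adjusted p = 9e-04). At week 10 none of the 12 rose and 4 fell by edgeR, beside 5.24% lower over all genes, and limma-voom called 2 lower. Without eGFP replicates 1 and 3, Apoe alone fell. Pltp, the phospholipid transfer protein, was at 40.8 to 84.1 CPM in LRG1 mice against 86.3 to 137 CPM in eGFP mice (log2 fold change -0.81, adjusted p = 0.0065, and -0.53, adjusted p = 0.13, without those replicates). Apoe, a main apolipoprotein of macrophages, was at 1130 to 1450 CPM in LRG1 mice against 1540 to 2420 CPM in eGFP mice (log2 fold change -0.51, adjusted p = 0.0095, and -0.65, adjusted p = 0.0098, without those replicates).

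Of 18 genes of sterol uptake, transport, esters and oxysterols, 1 rose and 4 fell at week 7, and 2 rose and 5 fell at week 10. Over all genes 7.37% rose and 10.7% fell at week 7, and 3.66% rose and 5.24% fell at week 10. Without eGFP replicates 1 and 3, 1 of the 18 was higher at week 10 and none lower. Soat1, which esterifies cholesterol, was at 62.9 to 97.3 CPM in LRG1 mice against 104 to 354 CPM in eGFP mice at week 10 (log2 fold change -1.65, adjusted p = 0.0029), and its log2 fold change was -0.63 (adjusted p = 0.023) without those replicates. Nceh1, which hydrolyses cholesterol esters in macrophages, stood at -1.33 (adjusted p = 0.0027) and -1.59 (adjusted p = 0.0026), and at -0.75 (adjusted p = 0.033) at week 10 without them. Lipa, the lysosomal acid lipase, fell by 1.95 at week 10 on the log2 scale (adjusted p = 0.0034), with -0.63 (adjusted p = 0.046) without them. Vldlr, a lipoprotein receptor, rose at both weeks, to 257 to 290 CPM in LRG1 mice against 117 to 149 CPM in eGFP mice at week 7 (log2 fold change 1.04, adjusted p = 7e-06), and by 0.88 at week 10 (adjusted p = 7.8e-04), or 0.75 (adjusted p = 0.0057) without them. The macrophage marker sums, which fell over the same libraries, stand beside these genes too.

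Fatty acid synthesis is the other programme under SREBP control. Of its 13 genes 7 rose and 1 fell at week 7, with a median log2 fold change of 0.79, and 2 rose at week 10, with a median of 0.48. Over all genes 7.37% rose and 10.7% fell at week 7, and 3.66% rose at week 10. DESeq2 called 6 of the 13 higher at week 10, and edgeR without eGFP replicates 1 and 3 called 1, Pnpla3. The 12 adipocyte markers had medians of 0.72 and 0.49 at the same weeks, and their part was not tested. The enzymes of cholesterol synthesis had medians of 0.01 and 0.28, and the difference between the lists was not tested. Pnpla3, a lipid droplet protein driven by SREBP1c, rose at both weeks, by 1.14 (adjusted p = 2.7e-04) and 1.28 (adjusted p = 0.0010) on the log2 scale. Acaca, the acetyl-CoA carboxylase that commits carbon to fatty acids, was at 383 to 558 CPM in LRG1 mice against 162 to 242 CPM in eGFP mice at week 7 (log2 fold change 1.21, SE 0.22, adjusted p = 8.8e-04).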

How the data were processed

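eWAT RNA of 16 mice was sequenced. Per the labels, the authors trimmed reads with cutadapt, aligned them with STAR to GRCm38 (mm10) and counted them per gene with featureCounts, and deposited raw counts for 55573 genes. Versions, strand setting and multimapping are not given in the sources used here. Groups came from the sample titles. All 16 libraries entered 1 edgeR 4.0.16 fit (R 4.3.3) with a coefficient per group, TMM scaling, filterByExpr and the quasi-likelihood F test, with Benjamini-Hochberg adjustment over 20822 genes and calls at an adjusted p below 0.01. Each SE was derived from the fold change and its F statistic. DESeq2 1.42.0, limma 3.58.1, other scalings, filters and left-out libraries were alternatives. Library totals of 45376227 to 67539937 and a common biological coefficient of variation of 0.203 set the precision. Libraries are single mice, so p-values measure the spread between animals and not between cages, the units assigned to a vector. The 28 genes, marker lists and pathway lists were chosen with earlier results of these data known. All 28 are named, and of a pathway list at most 4 called genes per comparison, by smallest adjusted p. Promoters are from RefSeq.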

Additional observations from a re-analysis of the deposited data

Results flagged for a closer look

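In 5 of 112 sets of 4 mice (28 genes in 4 groups), or 4.46%, 1 mouse stood apart from the other 3 by more than Dixon's 95% critical ratio, where chance flags about 1 in 20 sets. Nsdhl appears in both LRG1 groups: replicate 4 of week 7 was the lowest at 62.0 CPM, with the others at 79.4 to 81.0 CPM, and replicate 2 of week 10 the lowest at 60.7 CPM, with the others at 81.9 to 84.4 CPM. Mvd was the highest in replicate 3 of LRG1 mice at week 7, at 7.00 CPM beside 5.74 to 5.78 CPM. In eGFP mice at week 10, Pmvk was the highest in replicate 4, at 25.1 CPM beside 21.97 to 22.15 CPM, and Nr1h3 the lowest in replicate 2, at 48.8 CPM beside 55.0 to 56.3 CPM.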

How the results depend on the processing

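No called value changed sign under any alternative. Uncalled values near 0 did, such as Sqle at week 10, which ran from -0.26 to 0.12 over the other tools, scalings and filters and stood at 0.41 without eGFP replicates 1 and 3, and Abcg1 over time in eGFP mice, at 0.31 with all libraries and -0.36 without those replicates. Of the single values of the 28 genes, 2948 kept their side of the threshold, 49 gained a call and 83 lost it, and the cause was not tested. In these counts, those of the 28 come before those of all genes. DESeq2 called 8 of the 28 at week 7, 3565 of all genes at week 10, 274 in the difference between weeks, 7 and 1079 over time in eGFP mice and 55 over time in LRG1 mice. Limma-voom with quality weights called 11 and 6148 at week 7, 3 and 252 at week 10, 1 of the 28 over time in eGFP mice and 10 genes over time in LRG1 mice. Fits of only the 8 libraries compared called 11 and 5727 at week 7, 0 and 12 at week 10, 0 and 109 over time in eGFP mice and 11 genes over time in LRG1 mice. RLE scaling, upper quartile scaling and leaving out mitochondrially encoded genes each called 1 of the 28 over time in eGFP mice, and scaling by totals called 6 there and 122 of all genes in the difference. With no filter the difference had 104 calls, and robust empirical Bayes called 1 gene over time in LRG1 mice. At an adjusted p below 0.05 there were 12 and 6555 calls at week 7, 4761 at week 10, 196 in the difference, 8 and 1220 over time in eGFP mice and 10 over time in LRG1 mice. Scaling by totals moved the median of all genes to -0.15 at week 7, 0.14 in the difference and -0.12 over time in eGFP mice.

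The sample titles do not say what a replicate number stands for. Deviations of same-numbered mice from the group means correlated at -0.276 to 0.262 over 24 pairs (median 0.0226). These values cannot show whether such mice shared a cohort or handling. With the replicate block the 28 genes had 3 calls at week 7, and all genes had 1174 at week 10, 35 in the difference, 258 over time in eGFP mice and 0 over time in LRG1 mice. Leaving out 1 library at a time gave 2 to 4 of the 28 and 2239 to 2956 of all genes at week 7, 3 to 9 and 284 to 3647 at week 10, 0 and 40 to 92 in the difference, 1 to 2 and 180 to 479 over time in eGFP mice, and 0 and 0 to 2 over time in LRG1 mice. Without eGFP replicates 1 and 3 of week 10, chosen after seeing the data, there were 3 and 161 calls at week 10, 1 and 466 in the difference and 13 and 2209 over time in eGFP mice. Fdps, Tm7sf2 and Idi1, the lowest genes per length, had the fewest reads.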
